A study of Homo sapiens with 12 samples.

Results

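Vimentin and 9 contractile cytoskeleton genes were followed across 12 RNA sequencing libraries of 3 established human cancer cell lines. The 10 genes are VIM, ACTA2, TAGLN, CNN1, MYL9, TPM1, TPM2, CALD1, ACTN1 and FLNA. They were found by symbol among the 57500 genes of the count table, where each has 1 row, and all 10 are described whatever their result. SW480 comes from a primary colorectal tumour and SW620 from a metastatic site of the same patient. PEO4 is an ovarian cancer line that was kept in control medium or given recombinant human TGF-β at 10 ng/mL for 6 days. Each of these 4 groups has 3 libraries, called biological replicates in the labels, and the labels name no engineered allele. The SW lines grew in DMEM and PEO4 in an RPMI medium, each with fetal bovine serum and antibiotics, so levels across them are described without a test. The study's comparisons are SW620 against SW480, and PEO4 with TGF-β against PEO4 control. Each tumour stage is represented by 1 line, so a difference between SW480 and SW620 is a difference between those lines.

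Vimentin is an intermediate filament protein of mesenchymal cells, and its appearance in carcinoma cells is a common readout of epithelial-mesenchymal transition. The other genes build or regulate actin bundles that contract. Smooth muscle actin (ACTA2) is polymerised into filaments, transgelin and calponin bind along them, tropomyosins and caldesmon set the access of myosin, MYL9 encodes a regulatory light chain of myosin, and alpha-actinin and filamin A cross-link the filaments. Many of these genes are targets of serum response factor (SRF) and its actin-sensing coactivators, and TGF-β is a classic inducer of the contractile set in fibroblasts.

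Library totals, in units of 1e6 counts, ranged from 14.5 to 22.0. Lineage markers were compared with the labels. CDX2, an intestinal transcription factor, averaged 18.4 CPM (counts per 1e6 counts) in SW480 and 18.7 in SW620 and had at most 3 counts in any PEO4 library, and PAX8, a Müllerian factor, averaged 558 CPM in PEO4 control and 574 under TGF-β. The colorectal lines also had PAX8, at a mean of 43.4 (SW480) and 46.6 CPM (SW620). The summed level of 4 epithelial markers (EPCAM, KRT8, KRT18, CDH1) lay between 1567 and 4713 CPM in every library. In both SW lines replicate 2 stood apart, with the lowest total of its group (14.7 and 14.5 in that unit), the most genes detected (33211 and 32716) and the largest scaling factor (1.21 and 1.26). In an attempt to detect counts carried over from another line, 2 genes qualified in SW620 replicate 3 and none in the other 11 libraries. Their 42 counts correspond to 1.25% of the other line's level, which would amount to 0.166% (VIM) to 2.31% (TAGLN) of the counts of the 10 genes in that library. A gene with at most 3 counts in that library too would have qualified in every SW library. The 2 genes thus exceed 3 counts there by the rule, and the 1.25% is not a general estimate. Levels below are CPM on scaled library totals, with means ± SD over n = 3 libraries, and a count of 0 would allow up to 3 counts.

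Between the SW lines, 7 of the 10 genes passed edgeR's quasi-likelihood test at an adjusted p under 0.05, against 30.5% of the 20941 genes tested. VIM, ACTA2, MYL9, ACTN1 and FLNA were lower in SW620 (17.0% of all genes were), and TAGLN and TPM2 were higher (13.5% of all genes). The replicate ranges of the 2 lines did not overlap for 8 of the 10, 3 of them higher and 5 lower in SW620, against 43.6% of all genes tested (21.6% higher and 22.0% lower). The fitted change was above 0 for 4 of the 10 (51.7% of all genes). In PEO4, 9 genes could be tested and 2 passed, TAGLN and CALD1, both higher with TGF-β, against 2.26% of the 19064 genes tested, of which 1.27% higher and 0.991% lower. Ranges did not overlap for 5 of the 9, all higher with TGF-β, against 21.3% of all genes (11.7% higher and 9.66% lower), and the fitted change was above 0 for 7 of the 9 (47.7% of all genes). The median log2 fold change of the tested members was -0.43 in SW620 over SW480 and 0.50 with TGF-β, beside 0.03 and -0.02 over all genes. No test of the difference between the 2 comparisons was made. In bulk RNA, fewer cells with a transcript and less of it per cell cannot be told apart.

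**Figure D1:**
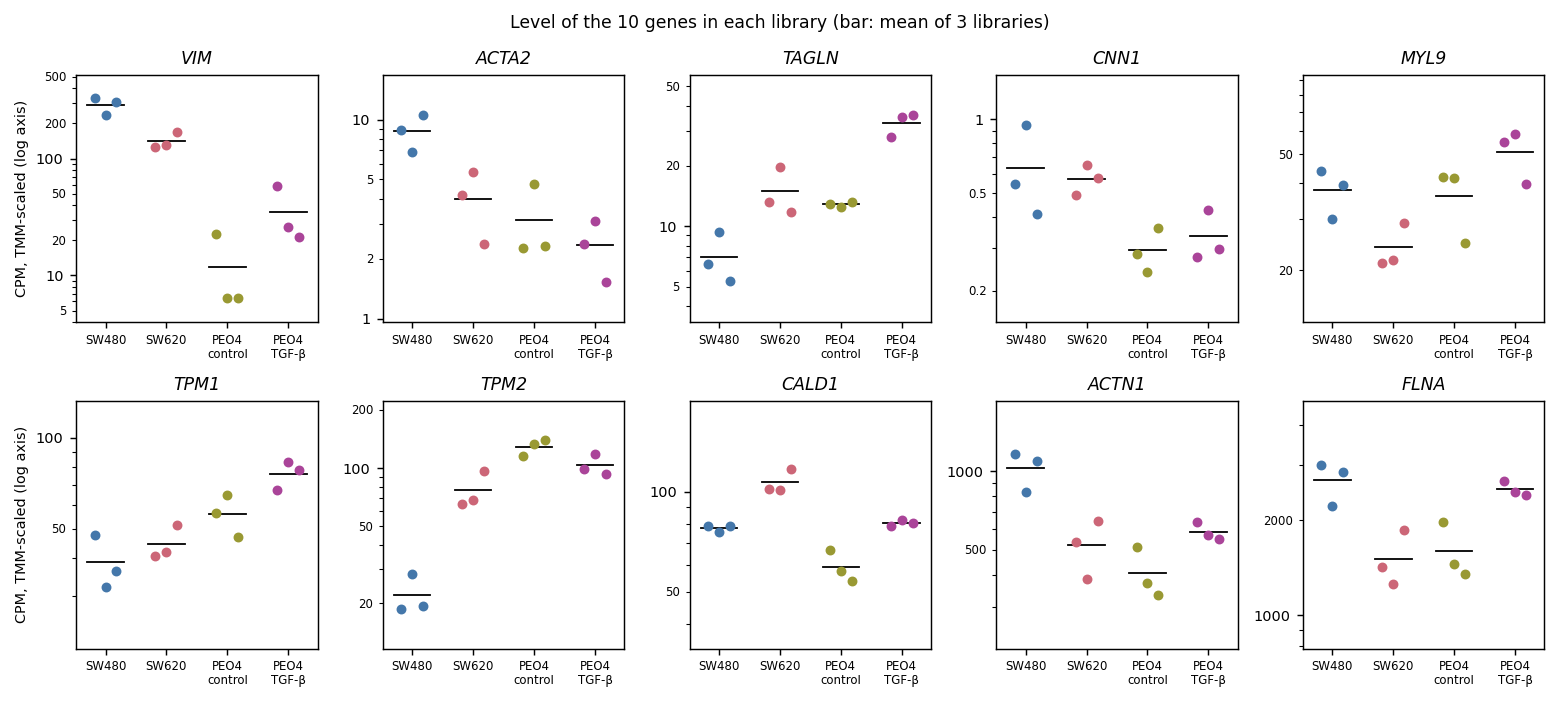
Level of the 10 genes in each of the 12 libraries, 1 panel per gene, in CPM on scaled library totals (log axis, whose range differs between panels); points are libraries and bars are means of 3. Mean VIM is 289 CPM in SW480 and 11.8 CPM in PEO4 control, and TPM2 has the opposite order, with 22.1 and 129 CPM.

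**Figure D2:**
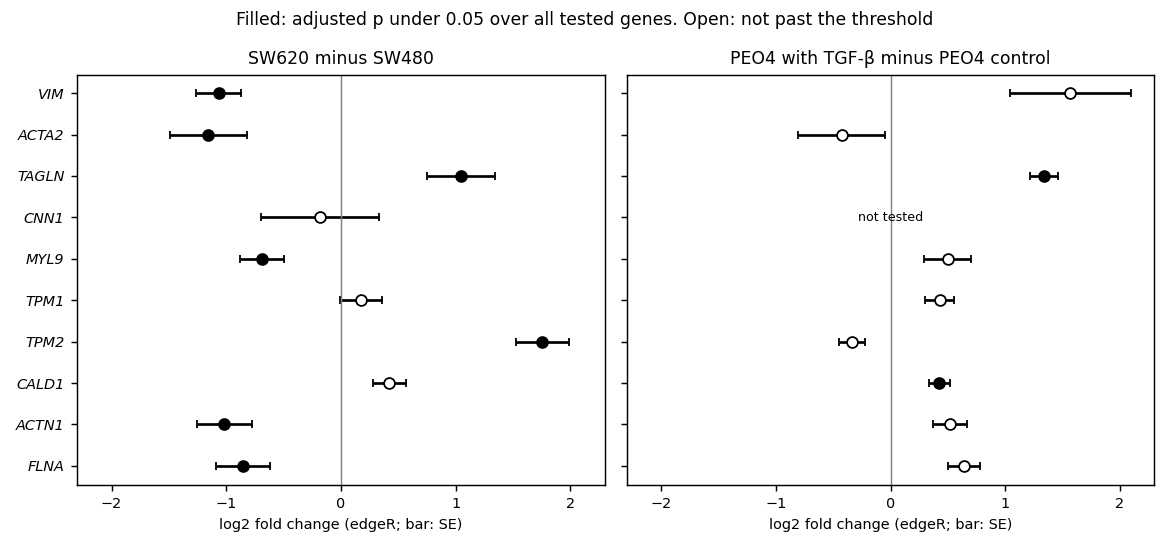
Fitted log2 fold change of each gene (edgeR) for SW620 minus SW480 on the left and PEO4 with TGF-β minus control on the right; bars are the standard error and filled points have an adjusted p under 0.05. Filled points lie on both sides of 0 on the left, and on the right the 2 filled points, TAGLN and CALD1, lie above 0.

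VIM, the intermediate filament gene (ENSG00000026025, chr10:17228259-17237593, plus strand, GRCh38), had the widest span of levels of the 10. In SW480 it stood at 327, 234 and 307 CPM in replicates 1, 2 and 3, and in SW620 at 126, 130 and 168 CPM. Each SW620 library was below each SW480 library. The fitted log2 change was -1.07 ± 0.19 (SE; adjusted p = 0.00295, edgeR), and the means were 289 ± 48.7 and 141 ± 23.3 CPM. VIM stayed past the threshold in 16 of 17 alternative analyses, the exception being a model over all 12 libraries (adjusted p = 0.0734).

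PEO4 control cells held little VIM, with 22.6, 6.38 and 6.37 CPM, or 401, 107 and 123 counts. With TGF-β the level was 58.6, 25.7 and 21.1 CPM, or 1066, 480 and 427 counts. Control replicate 1 lay inside the TGF-β range, while the other two controls lay below all 3 treated libraries. Replicate 1 was the highest of its group in both arms. The means, 11.8 ± 9.38 and 35.2 ± 20.4 CPM, differed 2.98-fold, with a log2 change of 1.57 ± 0.52 that did not pass (adjusted p = 0.179). A fit that matched libraries by replicate number gave VIM a log2 change of 1.65 ± 0.12 (adjusted p = 2.29e-06, edgeR). Whether equal numbers mark paired cultures is not settled, and the VIM call differed with that choice. It also differed with the filter: with no filter and no matching the log2 change was 1.59 ± 0.21 (adjusted p = 6.17e-09, edgeR). VIM passed in 4 of 17 alternative analyses of PEO4. Leaving out control replicate 1 gave a log2 change of 2.46 and an adjusted p of 0.0135 for VIM. Control replicate 1 also had the highest summed level of 5 TGF-β response genes (SMAD7, SKIL, TGFBI, PMEPA1, BHLHE40) among the controls, 1133 CPM beside 979 and 481, against 1403 to 2019 CPM with TGF-β. What part this has in the VIM result was not tested.

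**Figure D3:**
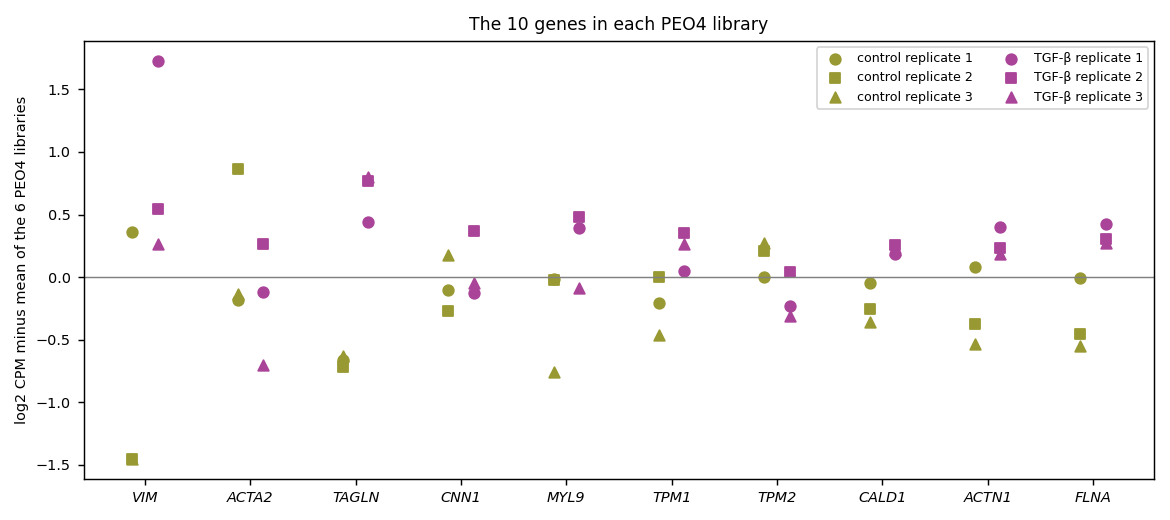
Each of the 10 genes in the 6 PEO4 libraries, as log2 CPM minus the mean of those 6 libraries; colour gives the treatment and marker shape the replicate. Control replicate 1 (circles) sits inside the treated range for VIM, and for TAGLN the 3 controls sit together well below the 3 treated libraries.

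ACTA2, alpha smooth muscle actin, the defining actin of smooth muscle and myofibroblasts (ENSG00000107796, chr10:88935074-88991339, minus strand), was low in all 4 groups. The SW480 libraries had 8.87, 6.90 and 10.5 CPM and the SW620 libraries 4.17, 5.46 and 2.36 CPM. The ranges did not overlap, and ACTA2 was lower in SW620 by a log2 change of -1.16 ± 0.34 (adjusted p = 0.0294, edgeR). PEO4 control libraries had 2.26, 4.77 and 2.33 CPM, and TGF-β libraries 2.36, 3.11 and 1.53 CPM. These ranges overlapped, with a log2 change of -0.43 ± 0.38 and an adjusted p of 0.623. The largest count in any treated library was 58. Without control replicate 2, the highest control, the log2 change was 0.02. Per kilobase of exon, ACTA2 made up 0.139% of the sum of ACTA2, ACTB and ACTG1 in SW480, 0.0828% in SW620, 0.0373% in PEO4 control and 0.0248% with TGF-β. The call between the SW lines was lost with total-count scaling (adjusted p = 0.0713 for ACTA2) and upper quartile scaling (0.0578).

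Transgelin (TAGLN, ENSG00000149591, chr11:117199321-117204782, plus strand), an actin-bundling calponin-family protein of smooth muscle, was the one member that passed in the same direction in both comparisons. It stood at 6.49, 9.36 and 5.31 CPM in SW480 and at 13.2, 19.8 and 11.8 CPM in SW620. In PEO4 it was 12.9, 12.5 and 13.3 CPM in control and 27.8, 35.0 and 35.7 CPM with TGF-β. In each comparison every library of the second group was above every library of the first, and the 3 PEO4 controls were closer together than the replicates of any other group. Replicate 2 was the highest library of both SW lines. The log2 change was 1.05 ± 0.30 in SW620 (adjusted p = 0.0256) and 1.34 ± 0.12 with TGF-β (adjusted p = 0.00158, both edgeR). With TGF-β TAGLN passed in all 17 alternative analyses, with log2 changes from 1.27 to 1.45, and between the SW lines it missed the threshold with upper quartile scaling (adjusted p = 0.0523 for TAGLN). Within the pair TAGLN and TAGLN2, TAGLN made up 4.61% ± 0.805 per kilobase in control and 7.50% ± 1.61 with TGF-β, and TAGLN2, its widely expressed paralogue, held the rest.

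Calponin (CNN1, ENSG00000130176, chr19:11538717-11550323, plus strand), a late marker of smooth muscle differentiation, was close to the detection limit. Counts were 11, 17 and 8 in SW480, 10, 12 and 12 in SW620, 5, 4 and 7 in PEO4 control and 5, 8 and 6 with TGF-β. The means were 0.637 ± 0.282, 0.574 ± 0.0820, 0.294 ± 0.0629 and 0.334 ± 0.0834 CPM in that order. CNN1 had a log2 change of -0.18 ± 0.52 between the SW lines (adjusted p = 0.830), with overlapping ranges, and it did not pass the count filter in PEO4, so it has no test there. A difference in CNN1 was not detectable at this depth. Its paralogue CNN3 was abundant in 3 of the 4 groups: it averaged 2.00 CPM in SW480 and 124 in SW620, a log2 change of 5.92 ± 0.31 (adjusted p = 4.06e-06), and 143 and 180.4 CPM in PEO4 control and with TGF-β.

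The myosin regulatory light chain gene MYL9 (ENSG00000101335, chr20:36541484-36551447, plus strand) encodes the subunit whose phosphorylation switches on the motor. It stood at 44.0, 29.9 and 39.2 CPM in SW480 and at 21.2, 21.7 and 29.1 CPM in SW620. The ranges nearly met, at 29.9 and 29.1 CPM, without overlapping. MYL9 was lower in SW620 by a log2 change of -0.69 ± 0.19 (adjusted p = 0.0242, edgeR). The PEO4 controls had 41.7, 41.4 and 24.8 CPM, and the treated libraries 55.1, 58.8 and 39.5 CPM. Treated replicate 3 lay below 2 of the controls, and the log2 change of 0.50 ± 0.21 did not pass (adjusted p = 0.274).

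Tropomyosins lie along the actin filament and gate its binding by myosin and other proteins. TPM1 (ENSG00000140416, chr15:63042632-63071915, plus strand) had 47.8, 32.1 and 36.1 CPM in SW480 and 40.6, 41.8 and 51.3 CPM in SW620. These ranges overlapped, and the log2 change was 0.17 ± 0.18 (adjusted p = 0.536). In PEO4 it had 56.3, 64.9 and 46.9 CPM in control and 67.1, 82.9 and 78.0 CPM with TGF-β. Every treated library was above every control, yet the log2 change of 0.43 ± 0.13 did not pass (adjusted p = 0.137).

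TPM2 (ENSG00000198467, chr9:35681992-35690121, minus strand), the beta-tropomyosin gene, showed the largest difference of the 10 between the SW lines. SW480 libraries had 18.7, 28.4 and 19.3 CPM, and SW620 libraries 65.5, 68.5 and 96.6 CPM. The lowest SW620 library was above the highest SW480 library by more than the spread of either group. The log2 change was 1.76 ± 0.23 (adjusted p = 0.000488), a 3.47-fold difference of means, and TPM2 passed in all 17 alternative analyses. In PEO4 the level was higher still, at 115, 133 and 139 CPM in control and 98.4, 119 and 93.1 CPM with TGF-β. Treated replicate 2 lay inside the control range, and the log2 change of -0.34 ± 0.11 did not pass (adjusted p = 0.175). The log2 ratio of TPM2 to TPM1 moved from -0.81 ± 0.59 in SW480 to 0.77 ± 0.12 in SW620, and from 1.21 ± 0.31 in PEO4 control to 0.44 ± 0.16 with TGF-β. The 3 libraries of one group did not overlap with those of the other in either case. An exact two-sided permutation test then gives p = 0.1, the smallest that 3 against 3 libraries allow. That p only restates the separation and adds no evidence. The share of other gene pairs whose ratios separate was not computed.

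Caldesmon (CALD1, ENSG00000122786, chr7:134744252-134970728, plus strand), which restrains myosin on the actin filament, was among the steadiest of the 10 within groups. Its levels were 78.9, 75.8 and 78.9 CPM in SW480 and 102, 101 and 117 CPM in SW620. Although the ranges did not overlap, the log2 change of 0.42 ± 0.14 fell just short of the threshold (adjusted p = 0.0552). CALD1 passed in 8 of 17 alternative analyses there, among them DESeq2 (adjusted p = 0.0232). In PEO4 the controls had 66.7, 57.7 and 53.9 CPM and the treated libraries 78.5, 82.2 and 80.3 CPM. All 3 treated libraries were above all 3 controls, and the log2 change of 0.42 ± 0.09 passed narrowly (adjusted p = 0.0496, edgeR). That call was kept in 11 of 17 alternatives and in 1 of the 6 analyses that left out a library. CALD1 had an adjusted p of 0.00995 without control replicate 1, and between 0.113 and 0.228 without any other library, with log2 changes from 0.37 to 0.53.

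Alpha-actinin (ACTN1, ENSG00000072110, chr14:68874143-68979440, minus strand) and filamin A (FLNA, ENSG00000196924, chrX:154348524-154374638, minus strand) cross-link actin filaments, the first into parallel bundles and the second into networks tied to integrins. ACTN1 stood at 1162, 835 and 1091 CPM in SW480 and at 533, 384 and 644 CPM in SW620. FLNA stood at 2982, 2216 and 2837 CPM in SW480 and at 1424, 1258 and 1860.1 CPM in SW620. For both genes each SW620 library was below each SW480 library, and replicate 2 was the lowest of its line. The log2 change was -1.02 ± 0.24 for ACTN1 (adjusted p = 0.0110) and -0.86 ± 0.24 for FLNA (adjusted p = 0.0231, both edgeR).

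With TGF-β the levels of both cross-linkers were above every control. The PEO4 controls held 512, 373 and 334 CPM of ACTN1 and the treated libraries 637, 568 and 549 CPM. For FLNA the controls held 1979.9, 1455 and 1357 CPM and the treated libraries 2671, 2458 and 2404 CPM. Control replicate 1 was the highest control for both. Neither change passed: the log2 change was 0.51 ± 0.15 for ACTN1 (adjusted p = 0.124) and 0.64 ± 0.14 for FLNA (adjusted p = 0.0521). Without control replicate 1 ACTN1 had a log2 change of 0.73 and an adjusted p of 0.00605, and FLNA 0.84 and 0.00274. Each gene passed in that 1 of the 6 analyses without a library. In the others the adjusted p reached 0.439 for ACTN1 and 0.262 for FLNA. Both passed in DESeq2 on all libraries (adjusted p = 0.0147 and 0.000230).

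ACTN1 and FLNA each have a promoter window with an exact CArG box, the SRF binding motif. The other ACTN1 windows lacked it. ACTN1 and FLNA were also the closest pair among the 10 in their pattern over the 12 libraries. Their root mean square difference was 0.30, hardly below the 0.32 of FLNA and MYL9, which has no matched window. Whether the motif bears on that pattern was not tested. The stretches are shown because this motif was found in no other window of the 10 genes. RefSeq windows (GRCh38.p14), 250 bases before to 50 bases after a start site, were matched for 8 of the 10 genes, 16 windows in all, and TAGLN and MYL9 were not matched. Both strands were searched. The CArG box was in 2 of the 16 windows, against 1.29% of all 35116 windows. Capitals mark it in FLNA (chrX:154374695-154374764, minus strand, with the motif starting 94 bases before the start site) and in ACTN1 (chr14:68977697-68977766, minus strand, 171 bases before). The second run of capitals in ACTN1 is CATTCC, the TEAD motif.
FLNA: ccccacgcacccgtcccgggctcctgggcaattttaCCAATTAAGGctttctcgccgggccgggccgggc
ACTN1: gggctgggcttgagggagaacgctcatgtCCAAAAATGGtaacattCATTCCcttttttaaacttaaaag
ACTA2 had no exact CArG box in its windows, and its stretch (chr10:88952824-88952973, minus strand) is shown for 2 runs that differ from the motif at 1 base, 121 and 71 bases before the start site. Its first capitals are CATTCC read on the other strand.
ACTA2: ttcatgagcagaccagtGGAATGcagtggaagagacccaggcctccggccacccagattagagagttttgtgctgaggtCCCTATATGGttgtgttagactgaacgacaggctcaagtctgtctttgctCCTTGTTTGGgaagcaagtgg
CATTCC was in 4 of the 16 windows, belonging to CALD1, ACTA2 and ACTN1, against 14.0% of all windows. The SMAD palindrome GTCTAGAC was in none of the 16 (0.202% of all), nor was the E-box CAGGTG (20.6% of all). The search with 1 mismatch, chosen after the exact one, found 5 of the 16 windows in 4 genes, against 17.9% of all windows. A match is a description of these letters and not evidence of binding.

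Across the 4 groups the order of levels differed from gene to gene. VIM and ACTA2 were highest in SW480, then SW620, with both PEO4 groups below. VIM separated SW620 from treated PEO4 by 4.02-fold without overlap, while its 2 PEO4 groups overlapped, and for ACTA2 the ranges of SW620 and both PEO4 groups overlapped between neighbours in the order. TAGLN was highest in treated PEO4, 2.20-fold above SW620, which overlapped with PEO4 control, and SW480 came last without overlap. TPM2 ran from PEO4 control through treated PEO4 to SW620, neighbours that overlapped, and then dropped to SW480. TPM1 was highest in treated PEO4, followed by PEO4 control without overlap and by SW620 and SW480, which overlapped with their neighbours. CALD1 was highest in SW620 and lowest in PEO4 control, each apart from its neighbour, with treated PEO4 and SW480 overlapping between them. For ACTN1, SW480 stood alone above the other 3 groups, whose neighbours overlapped. FLNA in SW480 and in treated PEO4 overlapped and lay above PEO4 control and SW620, which also overlapped. MYL9 overlapped between all neighbours in the order. SW620, the lowest, overlapped only with PEO4 control and lay below SW480 and treated PEO4. For CNN1 the SW lines overlapped with each other, SW620 lay above treated PEO4 without overlap, and the PEO4 groups overlapped.

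Levels of different genes can be set side by side only per length, here CPM per kilobase of all annotated exons. FLNA came first in every group, with 253 CPM per kilobase in SW480, 143 in SW620, 151 in PEO4 control and 237 with TGF-β. CNN1 came last in every group. VIM was the third in both SW lines, at 56.1 and 27.4 CPM per kilobase, and the eighth and seventh in PEO4 control and treated PEO4, at 2.28 and 6.82. TPM2 was the second in PEO4 control at 39.8 CPM per kilobase and the sixth in SW480 at 6.81. With the length of the longest protein-coding transcript in place of all exons, FLNA stayed first and CNN1 last, and TPM2 was the third in PEO4 control.

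**Figure D4:**
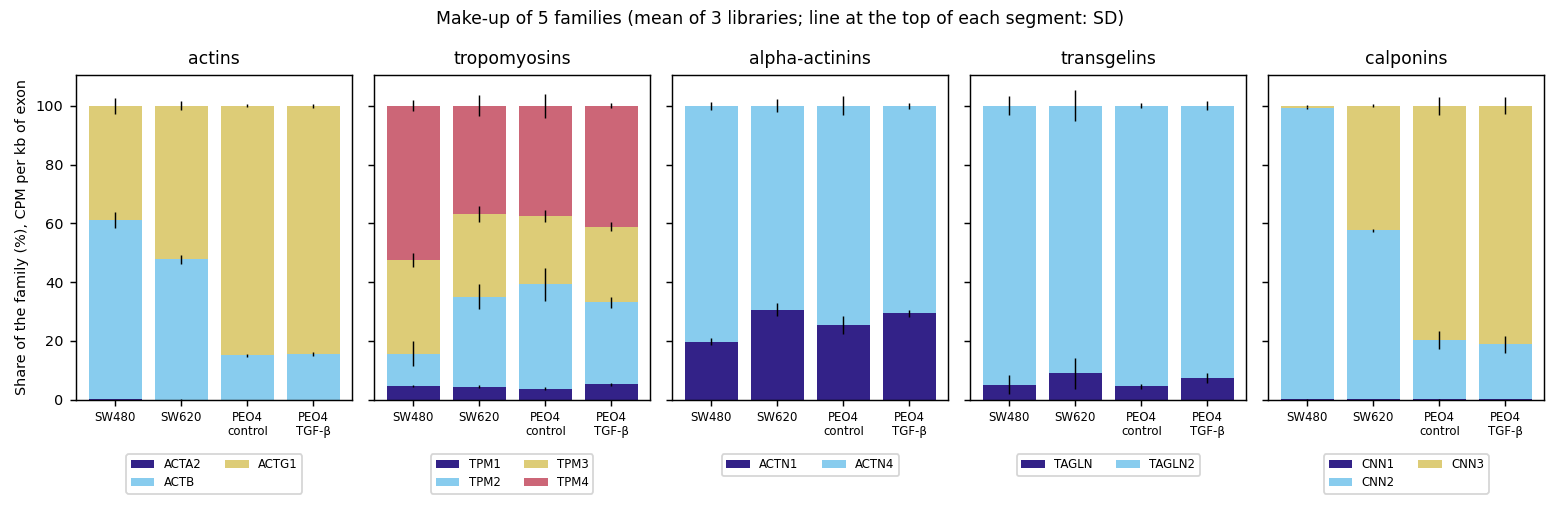
Make-up of 5 gene families in the 4 groups, as the mean percentage of the family's CPM per kilobase of exon over 3 libraries; a black line at the top of each segment is the SD. TPM2 (light blue, tropomyosins) is at 11.0% in SW480 and 30.5% in SW620, and TAGLN (dark blue, transgelins) at 4.61% in PEO4 control and 7.50% with TGF-β.

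Shares within families gave the members' place among their paralogues. Of the 4 tropomyosin genes, TPM2 made up 11.0% ± 4.33 of CPM per kilobase in SW480, 30.5% ± 4.23 in SW620, 35.5% ± 5.63 in PEO4 control and 28.0% ± 1.82 with TGF-β, and TPM1 stayed between 3.84% and 5.21%. The mean share of TPM4 ranged from 36.8% to 52.3%, and it was the largest in each library of the other 3 groups, while in PEO4 control, at 37.4% ± 4.12, it was exceeded by TPM2 in replicate 3 (32.8% and 41.2%). ACTN1 made up 19.8% ± 1.31 of the 2 alpha-actinins in SW480 and 30.7% ± 2.23 in SW620, although its own level was lower there, and ACTN4 averaged 2417 CPM in SW480 and 689 in SW620 (log2 change -1.84 ± 0.30, adjusted p = 0.00168). With longest-transcript lengths the ACTN1 shares were 36.1% and 50.3%, and those of TPM2 in the SW lines were 8.74% and 25.5%. With those lengths TPM4 exceeded TPM2 in every PEO4 control library, at 38.8% or more beside at most 35.1%.

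Patterns over the 12 libraries were compared by the root mean square difference of log2 CPM centred on each gene's own mean, as a description. ACTN1 and FLNA differed by 0.30, MYL9 and FLNA by 0.32, MYL9 and TPM1 by 0.37, and CNN1 and CALD1 by 0.40. CNN1 had 4 to 17 counts per library, and the prior count of 2 in the log2 CPM flattens its pattern. Its nearness to CALD1 is thus uncertain. VIM was the farthest from the rest, differing from TPM2 by 2.86, from TAGLN by 2.48 and from its nearest member, ACTN1, by 1.57. Among 11677 genes searched, the closest to VIM were STRA6 (0.54), GOLGA7B (0.54) and L1CAM (0.57). STRA6, a membrane receptor for vitamin A uptake, averaged 311, 135, 6.72 and 31.9 CPM in SW480, SW620, PEO4 control and treated PEO4, close to VIM's own 289, 141, 11.8 and 35.2 CPM. The closest to ACTA2 were TMC8 (0.29), N4BP2L2 (0.38) and DLGAP1-AS2 (0.38), and to TAGLN ERV3-1 (0.35), THBS3 (0.37) and CLTCL1 (0.38). The points share their lines, media and library depths.

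The 6 lists of neighbouring cytoskeleton genes hold 101 genes besides the 10. In SW620 against SW480, called genes on these lists were mostly lower, beside the 30.5% called over all genes (17.0% lower and 13.5% higher). Of 15 tested paralogues of the 10, 5 passed, 2 higher (CNN3, TAGLN3) and 3 lower (ACTN4, FLNC, DES), with a median log2 change of -0.32. Of 26 focal adhesion and stress fibre linkers 12 passed, 2 higher and 10 lower (median -0.55). LIMS1, an adaptor of integrin-linked kinase, fell from 412 to 80.9 CPM (log2 change -2.38 ± 0.22, adjusted p = 5.79e-05), and PDLIM7, a scaffold on stress fibres, from 83.6 to 34.1 CPM (-1.33 ± 0.15, adjusted p = 0.000193). All 9 called genes among 20 of actin turnover were lower (median -0.56), with GSN, the severing protein gelsolin, at 20.8 and 2.82 CPM (log2 change -2.91 ± 0.22, adjusted p = 1.92e-05).

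Of 17 tested genes of the myosin motor and its control, 7 passed, with a median of -0.29. MYLK, the kinase that phosphorylates the MYL9 product, was lower in SW620 at 18.9 and 6.74 CPM (log2 change -1.52 ± 0.25, adjusted p = 0.00182). So were MYH14, a non-muscle myosin heavy chain, at 29.2 and 4.07 CPM (-2.87 ± 0.21, adjusted p = 1.93e-05), and 4 more, ROCK1, ROCK2, RHOC and PPP1R12C. MYH10, another non-muscle heavy chain, was the one called higher, at 91.7 and 192 CPM (1.03 ± 0.18, adjusted p = 0.00235). Among 10 tested intermediate filament genes other than VIM, 3 passed and were lower, SYNM, PRPH and LMNA (median -0.46). SYNM, which co-assembles with vimentin, went from 13.4 to 1.64 CPM (log2 change -3.06 ± 0.24, adjusted p = 2.64e-05). Of SRF and 3 coactivators, MYOCD alone passed, at 1.12 ± 0.464 CPM in SW480 and 0.0527 ± 0.0547 in SW620, close to the detection limit. SRF itself had 58.6 and 86.9 CPM (log2 change 0.53 ± 0.20, adjusted p = 0.0703). TAGLN3, DES, MYOCD, PRPH, ROCK1 and PPP1R12C are named after their values were seen. Without SW480 replicate 1, SW480 replicate 3 or SW620 replicate 1 the myosin list had 3, 3 and 4 calls and the actin turnover list 5 each. The share of all genes called in those analyses was 19%, 19.8% and 19.5%. Without SW620 replicate 3 the intermediate filament list had 5 (32.8% of all genes called), and without SW620 replicate 2 the SRF list had 2 (33.3% of all genes). Over the 6 analyses without 1 library FLNC kept its call in 1, RHOC in 2, and ROCK2 and LMNA in 4. FLNC also missed the threshold with upper quartile scaling (adjusted p = 0.0983), total-count scaling (0.136), no filter (0.0830), 10 counts in every library (0.0519) and GC correction (0.128), and kept its call in 5 of the 15 alternatives without a replicate block.

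**Figure D5:**
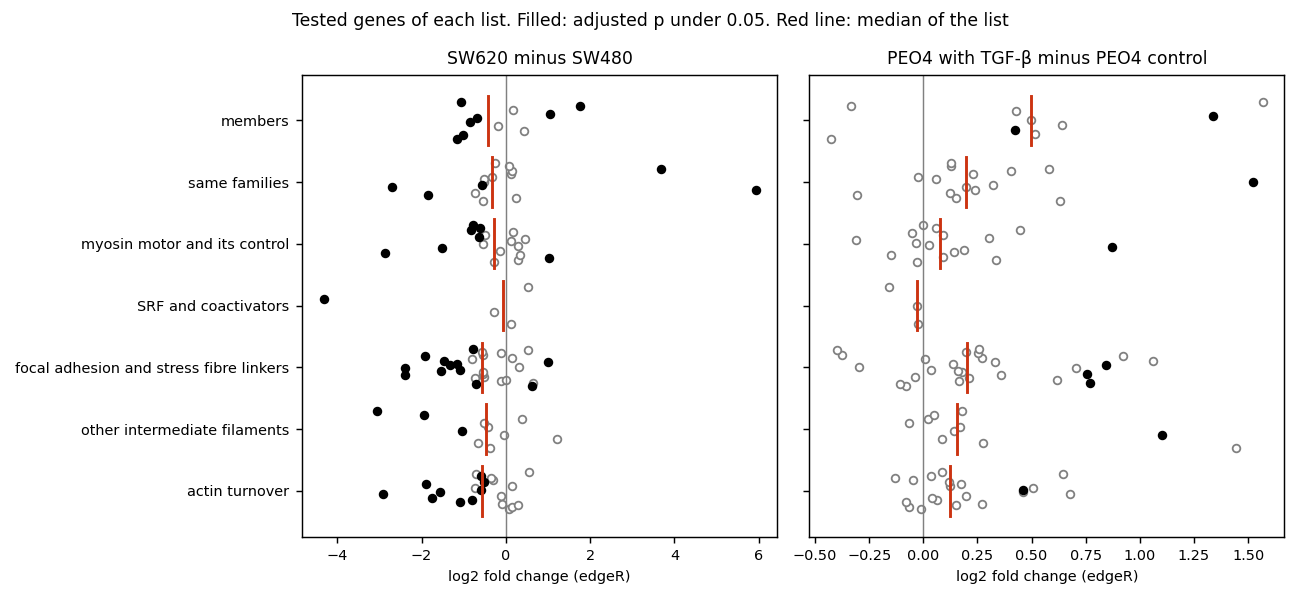
Fitted log2 fold changes of the tested genes of each list, SW620 minus SW480 on the left and PEO4 with TGF-β minus control on the right (axes differ); filled points have an adjusted p under 0.05 in edgeR's test and red lines are list medians. On the left filled points lie mostly below 0, and on the right all filled points lie above 0.

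In PEO4 the same lists had few calls, all of them higher with TGF-β, beside 2.26% called over all genes (1.27% higher and 0.991% lower). FLNC, the muscle filamin, was the one called paralogue of 15 (median 0.20). It rose from 185 ± 34.4 to 534 ± 54.0 CPM, a log2 change of 1.52 ± 0.13 (adjusted p = 0.00149), and kept its call in all 15 alternatives without a replicate block. MYLK was the one called gene of 16 on the myosin list (median 0.07), at 42.0 and 77.3 CPM (log2 change 0.87 ± 0.14, adjusted p = 0.0182). Among 26 focal adhesion and stress fibre linkers 3 rose (median 0.20): PDLIM7 from 94.2 to 170.3 CPM (0.84 ± 0.11, adjusted p = 0.00589), FHL1 from 31.1 to 53.4 CPM (0.77 ± 0.14, adjusted p = 0.0240), and PALLD, the actin cross-linker palladin, from 33.0 to 56.0 CPM (0.75 ± 0.09, adjusted p = 0.00520). The keratin gene KRT7 was the one called of 10 intermediate filament genes (median 0.16), at 601 and 1300 CPM (1.10 ± 0.16, adjusted p = 0.0114), and LIMK2, which phosphorylates cofilin, the one of 20 for actin turnover (median 0.12), at 42.0 and 58.2 CPM (0.46 ± 0.10, adjusted p = 0.0443). Of 3 tested genes of the SRF list, 0 passed in edgeR or DESeq2 and 0 had an unadjusted p under 0.05, and SRF had 112 and 101 CPM. MYLK, PDLIM7, FLNC and LIMK2 (SW620 over SW480 log2 change -0.59 ± 0.15, adjusted p = 0.0153, named after its value was seen) were thus called lower in SW620 and higher with TGF-β. The fitted values of VIM, MYL9, ACTN1 and FLNA had the same signs, but their PEO4 values did not pass. The other tested members differed: TAGLN, TPM1 and CALD1 had positive values in both comparisons and ACTA2 negative values in both. TPM2 had the reverse signs, 1.76 in SW620 and -0.34 with TGF-β. The share of all genes with opposite signs or opposite calls was not computed. Without control replicate 2 the calls of MYLK, FHL1, KRT7, LIMK2 and PDLIM7 were lost (adjusted p from 0.0553 to 0.161), and the focal adhesion list had 1 call, with 0.366% of all genes called. MYLK was also lost without treated replicate 1 (adjusted p = 0.0820) or 2 (0.0725), and KRT7 without treated replicate 2 (0.0539), while FHL1 and LIMK2 kept their calls in 1 of the 6 such analyses, the one without control replicate 1. That one had 5.38% of all genes called, and 8 calls on the focal adhesion list, 2 among the paralogues, 2 on the myosin list and 3 on the actin turnover list. In the model over all 12 libraries MYLK (adjusted p = 0.0646), FHL1 (0.157), KRT7 (0.193) and LIMK2 (0.130) also missed the threshold, and LIMK2 did with GC correction (0.0787).

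Marker genes of other cell types were measured beside these results. Smooth muscle markers (MYH11, DES, LMOD1, ACTG2, SYNPO2) summed to 8.87 to 11.2 CPM in SW480, 5.83 to 13.0 in SW620, 6.56 to 8.80 in PEO4 control and 7.24 to 9.45 with TGF-β. ACTG2 had 0 counts in SW480 and at most 4 in any SW620 library, and 3 of the 5 markers exceeded 3 counts in at least 1 PEO4 control library. The 7 fibroblast markers (COL1A2, PDGFRA, PDGFRB, THY1, DCN, LUM, FAP) summed to 3.17 to 3.31 CPM in SW480, 8.69 to 18.1 in SW620, 228 to 354 in PEO4 control and 267 to 373 with TGF-β, and 5 of the 7 exceeded 3 counts in at least 1 library of each PEO4 group. In PEO4 nearly all of that sum was THY1, at 284 ± 63.3 CPM in control and 324 ± 53.3 with TGF-β, while COL1A2, PDGFRA, DCN, LUM and FAP had at most 11 counts in any PEO4 library. FAP was at 0 in all SW libraries, and LUM averaged 0.264 CPM in SW480 and 7.23 in SW620 (adjusted p = 9.48e-05, edgeR). The 3 endothelial markers (PECAM1, CDH5, VWF) summed to 2.48 to 2.75 CPM in SW480, 4.76 to 8.29 in SW620, 2.98 to 3.57 in PEO4 control and 1.88 to 2.09 with TGF-β. PECAM1 was called between the SW lines, at 0.175 and 3.09 CPM (adjusted p = 0.00128, edgeR). The 4 leukocyte markers (PTPRC, CD3E, LYZ, CD68) summed to 1.13 to 2.48 CPM in SW480, 1.62 to 14.4 in SW620, 6.00 to 7.27 in PEO4 control and 4.88 to 6.43 with TGF-β. Of the 4 epithelial markers 0 passed in either comparison, in edgeR or DESeq2, with 0 at an unadjusted p under 0.05 between the SW lines and 2 in PEO4. The part of these cell types in the results was not tested.

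Calls among the 10 between the SW lines depended on single libraries. Leaving out SW480 replicate 1, SW480 replicate 3 or SW620 replicate 1 left 2 of the 10, VIM and TPM2, past the threshold each time, and 19.0%, 19.8% and 19.5% of all genes tested. The adjusted p then lay between 0.0936 and 0.103 for ACTA2, between 0.0533 and 0.0976 for TAGLN, between 0.0924 and 0.160 for MYL9, between 0.0559 and 0.0771 for ACTN1 and between 0.108 and 0.138 for FLNA, with directions kept. Without SW480 replicate 2 the 7 calls stood, and without SW620 replicate 2 MYL9 (adjusted p = 0.0557) and FLNA (0.0534) were lost and CALD1 gained (0.0330). In the authors' deposited tables, 8 of the 10 genes were called between the SW lines, CALD1 being the addition (adjusted p = 0.0199), against 34.3% of the genes listed. For PEO4 the authors' deposited table called 4, TAGLN (1.01e-15), CALD1 (0.00675), ACTN1 (0.0149) and FLNA (0.000226), against 5.66% of the genes listed.

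Several of the 10 genes share annotated exons with another gene (GENCODE 29), and the strand setting of the counting is not given in the sources used here. VIM overlaps VIM-AS1 by 641 exon bases, ACTA2 overlaps ACTA2-AS1 by 516 and FAS by 380, TAGLN overlaps PCSK7 by 446, and TPM1 overlaps TPM1-AS by 2070, all on the opposite strand. ACTN1 shares 300 bases with the pseudogene HMGN1P3 on its own strand. Without strand, reads from such partners cannot be told apart, so the levels of these genes, ACTA2 and TAGLN above all because they were low, are uncertain to that extent.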

How the data were processed

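Total RNA was depleted of ribosomal RNA, treated with DNase and sequenced, per the labels' protocols. The deposited table holds whole-number counts per gene, and the submitters' processing notes name Trimmomatic 0.36, STAR 2.5.2b, featureCounts (Subread 1.5.2), DESeq2 and GRCh38. The annotation and strand setting are not given in the sources used here. The authors' deposited comparison tables hold log2 fold changes, p-values and adjusted p-values, which were used only where named.

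The 6 libraries of a comparison were fitted on their own in edgeR (version 4.0.16, under R 4.3.3), with filterByExpr, TMM factors and the two-sided quasi-likelihood test of glmQLFTest. P-values were adjusted by Benjamini-Hochberg over all genes tested, at a threshold of 0.05. The standard error is the log2 fold change over the square root of F. CPM uses totals scaled by TMM over 12 libraries. Lengths, overlaps and GC come from GENCODE 29, which holds 56898 of 57500 gene IDs and may differ from the authors' counting annotation. Common biological variation (coefficient) came to 0.274 in the SW fit and 0.152 in the PEO4 fit. On simulated data with 200 changed genes, 0% of 1.5-fold, 20% of 2-fold and 84% of 4-fold changes were recovered in the SW design (20941 genes). In the PEO4 design (19064 genes) the shares were 28%, 48% and 94%. More genes were called in the data, 6385 and 431, so these shares hold for the simulated setting only. The labels do not say how cultures were separated, so p-values measure the spread between these samples. Floors cover counting error only.

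The members, lists and tests were chosen with earlier results of these data known. A few genes of the lists are not reported here and were left out of the list counts, but not of the fits. All 10 members are named, and from each list up to 5 genes per comparison with the largest absolute log2 fold change among those called with at least 10 CPM in the higher group. A carry-over gene had at least 50 CPM in the donor libraries and at most 3 counts in the other libraries of the line examined. Alternatives were scaling by RLE, by upper quartile or by totals alone, no filter, a filter of 10 counts in each library, DESeq2 1.42.0, limma-voom (limma 3.58.1), 1 model over 12 libraries, the replicate number as a block, a GC correction (span 0.3) alone and with the block, and leaving out each library. The longest protein-coding transcript as length was added after seeing the data.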

Additional observations from a re-analysis of the deposited data

How the results depend on the processing

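Between the SW lines the count of genes called, 6385, was 10667 with the replicate block and 11053 with GC correction and the block, and ranged from 4254 to 7419 over the analyses without 1 library, where 2 to 7 of the 10 members were called. In PEO4 the 431 genes and 2 members called became 1457 and 7 with no filter, 967 and 4 with DESeq2, 159 and 1 with all 12 libraries in 1 model, 2102 and 8 with the replicate block, and 2051 and 8 with GC correction and the block, and without 1 library they ranged from 72 to 1080 genes and from 1 to 5 members. The members gained with the block include VIM (log2 change 1.65) and, as the one lower gene, TPM2 (-0.34). Deviations of same-numbered libraries correlated at 0.016, 0.67 and 0.57 in the SW lines and at 0.29, -0.14 and 0.48 in PEO4. SW480 replicates 2 and 3 and PEO4 control replicates 1 and 3 correlated best with their own number. SW480 replicate 1 correlated best with SW620 replicate 3 (0.27), and PEO4 control replicate 2 with treated replicate 1 (0.24). These mixed values do not settle whether replicate numbers pair the samples. Directions turned for CNN1 without SW480 replicate 2 (log2 change 0.22, and -0.44 at the lowest over such analyses) and for ACTA2 in PEO4 without control replicate 2 (0.02, and -0.67 at the lowest), neither past the threshold. Requiring 10 counts in every library left CNN1 out in the SW lines and gave a member median of -0.74. The member median in PEO4 ranged from 0.37 to 0.63 without 1 library. CPM on unscaled totals moved 6 of the 40 group means of members by more than 1 SD, and transcript lengths moved 36 of 40 means per kilobase. Among the lists, total-count scaling gave 19 calls for focal adhesion in the SW lines (12 in the main analysis), and no filter gave 9 in PEO4 (3). Over all genes, calls in those fits were 6928 (6385 in the main analysis) and 1457 (431). The causes were not tested. CNN1 rests on 4 to 17 counts per library, which limits the precision of its values.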
